A study of Homo sapiens with 5 samples.

Results

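Endothelin and angiotensin signalling was followed in TEAD4 ChIP-seq data through 8 listed genes, namely the ligand genes EDN1 and EDN2, the angiotensin precursor gene AGT, the processing enzyme genes ECE1 and ACE, and the receptor genes EDNRA, EDNRB and AGTR1. The genes were listed by name rather than by a measured value, though with earlier results of these data known, and all 8 were found among the 20046 protein-coding genes of GENCODE release 44. A TEAD4 peak was assigned to a gene when its summit, the position of highest signal within the peak, lay in the gene body or within 50 kb of any annotated transcription start site (TSS) of that gene. With this rule, 16 of the 21113 peaks were assigned to 5 of the 8 genes.

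The chromatin came from LX-2, an immortalised human line derived from hepatic stellate cells, the liver cells that become myofibroblasts in fibrosis. All cultures had received the solvent DMSO only, so every value describes this single condition of 1 cell line and no treated cells were compared. The series held 3 ChIP samples made with an antibody to TEAD4 and 2 samples of input chromatin. The list analysed here holds the peaks that the authors retained from replicates 1 and 3 together after an irreproducible discovery rate (IDR) comparison. It gives no value for either replicate alone, so the replicates could not be compared, the depth behind each peak is unknown, and the values below carry no replicate error. Without replicate values no test between groups could be made, and the shares of peaks and genes are given with Wilson 95% intervals, which cover counting error only. No expression was measured in these samples, so neither the levels of the 8 genes nor the markers of stellate cells could be checked here.

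Endothelins are short peptides that are cut from larger precursors by endothelin converting enzymes and act on G protein-coupled receptors. Angiotensin II is made in turn from angiotensinogen by proteases, the last of which is angiotensin converting enzyme, and its type 1 receptor is also coupled to G proteins. Both peptides constrict vessels, and activated hepatic stellate cells are known to contract in response to them. TEAD4 is a DNA-binding factor that recruits the coactivators YAP1 and TAZ, and TEAD factors often occupy enhancers together with AP-1.

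The strongest peak of each gene with a peak, and each peak that held the TEAD motif ACATTCC, is given here as the 151 bases around its summit, because these windows carry the binding values and the motifs described afterwards. Sequences are from the plus strand of hg38. Capitals mark the TEAD core CATTCC, or its complement GGAATG, with the added base of ACATTCC where that longer motif was present, and the AP-1 motif TGACTCA or its complement TGAGTCA.
EDN1, upstream of the TSS, signal value 59.65, chr6:12289924-12290074: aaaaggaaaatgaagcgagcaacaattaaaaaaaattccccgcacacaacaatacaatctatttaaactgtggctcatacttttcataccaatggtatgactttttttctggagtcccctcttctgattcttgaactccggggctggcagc
EDN2, upstream, signal value 217.1, chr1:41496325-41496475: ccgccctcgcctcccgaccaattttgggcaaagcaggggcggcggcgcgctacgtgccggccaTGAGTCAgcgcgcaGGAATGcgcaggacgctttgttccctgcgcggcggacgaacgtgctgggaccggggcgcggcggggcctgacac
ECE1, past the 3′ end, signal value 160.8, chr1:21212236-21212386: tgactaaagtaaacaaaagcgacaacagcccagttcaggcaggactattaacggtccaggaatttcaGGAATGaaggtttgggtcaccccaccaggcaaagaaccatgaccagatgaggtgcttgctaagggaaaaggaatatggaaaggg
ECE1, intron, signal value 106.1, chr1:21303483-21303633: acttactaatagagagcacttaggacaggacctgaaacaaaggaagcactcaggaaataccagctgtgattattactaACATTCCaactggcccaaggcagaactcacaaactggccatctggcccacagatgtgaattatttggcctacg
EDNRA, past the 3′ end, signal value 83.82, chr4:147578229-147578379: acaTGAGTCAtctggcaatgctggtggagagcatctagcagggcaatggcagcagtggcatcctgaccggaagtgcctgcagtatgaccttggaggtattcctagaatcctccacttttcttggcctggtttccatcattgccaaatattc
AGTR1, upstream, signal value 76.23, chr3:148649079-148649229: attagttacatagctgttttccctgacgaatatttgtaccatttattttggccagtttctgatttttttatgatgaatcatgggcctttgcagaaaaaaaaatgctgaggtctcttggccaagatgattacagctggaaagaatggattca
AGTR1, intron, signal value 39.08, chr3:148723741-148723891: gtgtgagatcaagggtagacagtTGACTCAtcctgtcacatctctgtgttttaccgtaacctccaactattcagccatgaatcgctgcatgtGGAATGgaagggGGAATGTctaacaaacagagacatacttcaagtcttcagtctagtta
The EDN2 window had a TEAD core and an AP-1 motif on either side of its summit, the ECE1 windows had a TEAD core close to theirs, and the EDN1 window and the upstream AGTR1 window had neither.

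Peaks were unevenly spread over the 8 genes. ECE1 had 6 peaks, EDN2 had 5, EDN1 and AGTR1 had 2 each, EDNRA had 1, and AGT, ACE and EDNRB had none. The share of members with a peak was 62.5% (interval 30.6 to 86.3%), and 56.1% of all protein-coding genes had a peak by the same rule, so the share of members did not stand apart from that of genes in general. EDN2 and ECE1 were the members with 5 or more peaks, a number reached by 7.18% of protein-coding genes. The median protein-coding gene had 1 peak, with quartiles of 0 and 2 and a 95th percentile of 5.

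Longer genes offer more room for peaks, so the counts were also set against the searched length, which was the gene body joined with the windows around its TSSs. On this scale EDN2 ranked above ECE1, with 4.97 peaks per 100 kb for EDN2 over 100.6 kb and 2.68 peaks per 100 kb for ECE1 over 223.5 kb. EDN1 followed with 2.0 peaks per 100 kb, AGTR1 with 1.41 and EDNRA with 0.663. The 8 genes together had 1.38 peaks per 100 kb over 1157 kb, a pooled value without a counterpart here for all genes. The median of the 8 genes was 1.04, and over all protein-coding genes the median was 0.664 and the upper quartile 1.55. The density of EDN2 was higher than that of 98.4% of protein-coding genes, that of ECE1 higher than 89.6%, that of EDN1 higher than 84.3% and that of AGTR1 higher than 73.4%. The density of EDNRA lay at the middle of the distribution, above 50% of genes.

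The signal value, a number that the peak caller gave each peak and whose scaling is not given in the sources used here, was compared only by rank within the list. Over the 16 peaks it ran from 23.93 to 217.1 with a median of 69.5 (95% interval from order statistics 39.08 to 109.5), and the median of the whole list was 68.05 with quartiles of 46.15 and 113.6. Thus 8 of the 16 peaks lay above the median of the list, 3 lay above its upper quartile, 2 of them at EDN2 and 1 at ECE1. The highest, at EDN2, lay at the 92.3rd percentile. The highest IDR score of 1000 marks peaks that repeated best between replicates 1 and 3, the pair that the authors kept as concordant. This score was reached by 12 of the 16 peaks (75%) and by 76.1% of the list. The 4 peaks with lower scores were the distal peak of EDN1, 1 intronic peak of ECE1 and both peaks of AGTR1.

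**Figure D1:**
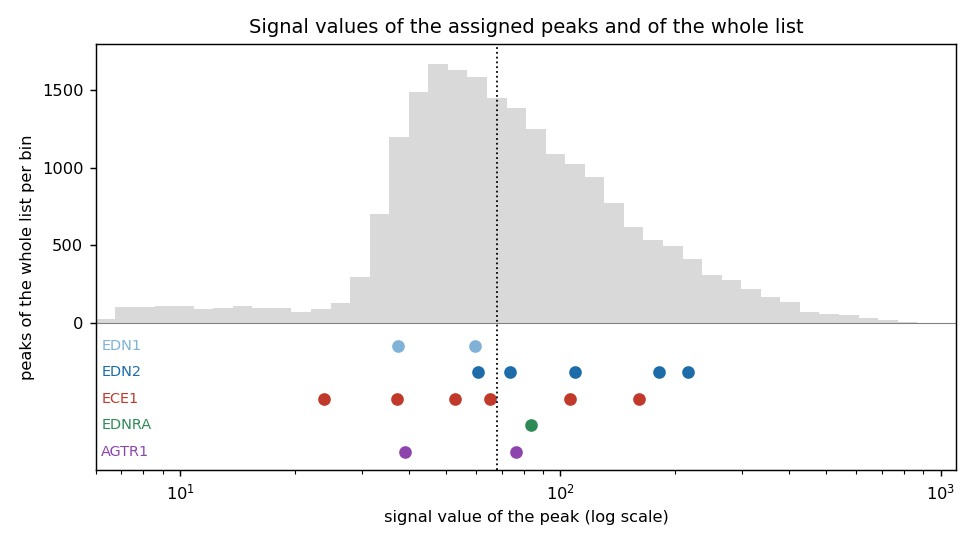
Signal values on a log axis for all 21113 peaks (grey histogram, number of peaks per bin) and for the 16 assigned peaks (points, 1 row per gene), with the list median of 68.05 as a dotted line. Of the 5 EDN2 peaks 4 lie to the right of the line, both EDN1 peaks lie to its left, and the 6 ECE1 peaks extend from 23.93 to 160.8.

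Among the ligand genes, EDN2 had more peaks than EDN1 within 50 kb (5 and 2) and within 10 kb (2 and 1), and with a limit of 100 kb both had 6. EDN2 encodes endothelin-2, a paralogue of endothelin-1 that acts on the same receptors (ENSG00000127129.10, minus strand, chr1:41478775-41484683). Its 5 peaks had signal values of 217.1, 181.9, 109.5, 73.55 and 60.71 and all had the highest IDR score. None of them lay in the gene itself, and 4 of the 5 lay upstream of it.

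The strongest EDN2 peak (chr1:41496243-41496541) had its summit 11717 bp upstream of the TSS and ranked 1619 in the list. Its base composition was 73.6% G and C within 100 bp of the summit, the highest of the 16 peaks. As the sequence above shows, a TEAD core lay 5 bp from the summit and an AP-1 motif lay on the other side at 9 bp, with 7 bases between these motifs. A further peak (chr1:41498887-41499128, 109.5) lay 2622 bp from the strongest one, 14339 bp upstream of the TSS, with a TEAD core 23 bp from its summit.

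At the EDN2 promoter there were 2 separate peaks. The one nearer to the gene (chr1:41485600-41486043, 73.55) had its summit 1139 bp upstream of the TSS and held an AP-1 motif 32 bp from the summit but no TEAD core within 100 bp. The other (chr1:41486272-41486715, 60.71) had its summit 1811 bp upstream and held a TEAD core 1 bp from it. These summits were 672 bp apart and the intervals did not overlap, so the AP-1 motif and the TEAD core of the EDN2 promoter were under different summits. Of all protein-coding genes, 16.6% had a summit within 2.5 kb of a TSS and 3.94% had 2 or more, and EDN2 was the 1 member with 2.

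The remaining EDN2 peak (chr1:41435686-41435940, 181.9) lay on the other side of the gene, 42979 bp past its 3′ end and 48289 bp from its nearest TSS, close to the limit of 50 kb. It held 2 TEAD cores, at 3 and 23 bp from the summit. EDN2 was still the protein-coding gene with the nearest TSS for this peak, as for its other 4.

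EDN1 encodes endothelin-1, the best known endothelin and a strong constrictor (ENSG00000078401.7, plus strand, chr6:12290361-12297194). It has 1 annotated TSS and had 2 peaks, with signal values of 59.65 and 37.36, both below the list median. The stronger (chr6:12289777-12290220) was the closest of all 16 to a start site, with its summit 362 bp upstream of the EDN1 TSS, and it had neither a TEAD core nor an AP-1 motif within 100 bp. The nearest TEAD core lay 111 bp from that summit. The weaker peak (chr6:12266610-12267053) had its summit 23529 bp upstream, an AP-1 motif 55 bp from the summit and an IDR score of 907. EDN1 thus had a promoter peak of middling signal, at the 42.0th percentile of the list, and its searched region of 100 kb was about as long as that of EDN2, which had 5 peaks.

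AGT encodes angiotensinogen, the precursor of all angiotensin peptides, which the liver secretes mainly from hepatocytes (ENSG00000135744.9, minus strand, chr1:230690776-230745576). No summit lay in AGT or within 50 kb of any of its 6 TSSs. The nearest (chr1:230869541-230869791, 159.5) was 124092 bp upstream and lay 79 bp from a TSS of another gene, C1orf198. The adjacent genes COG2 and CAPN9 had 0 peaks as well, so the stretch without peaks was wider than AGT itself.

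Of the processing enzymes, ECE1 had peaks by the rule and ACE had none. ECE1 encodes endothelin converting enzyme 1, the membrane protease that releases mature endothelin from its precursor (ENSG00000117298.16, minus strand, chr1:21217247-21345572), and its 13 TSSs are spread over the length of the gene. It had the most peaks of the 8 genes, 6, which 4.66% of protein-coding genes reached or passed. With overlapping peaks merged, or with only the 5′ end of each gene as TSS, ECE1 had 5, as did EDN2. Of the 6 summits 5 lay in introns, in 2 groups, 20930 to 22693 bp and 42014 to 42728 bp into the gene from its 5′ end, and none lay within 2.5 kb of a TSS. All 5 intronic summits were upstream of the TSS of the MANE Select transcript, the reference transcript of the gene, by 12381 to 34179 bp, and so lay within the longer isoforms that start further upstream.

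The intronic group nearer to the MANE start comprised 2 peaks with summits 714 bp apart. The stronger (chr1:21303483-21303655, 106.1), 4559 bp upstream of the closest TSS, held the full TEAD motif ACATTCC 6 bp from its summit, as printed above, and was 1 of 2 peaks in the whole set with that motif. The other (chr1:21302622-21303065, 52.68) was the ECE1 peak nearest to a TSS, at 3845 bp, and held a TEAD core 27 bp from its summit. The distal group comprised 3 peaks 20495 to 22258 bp downstream of the closest TSS, with signal values from 23.93 to 65.44. None of these held a TEAD core, and 1 of them held 2 AP-1 motifs. Within this group 2 peaks overlapped by 242 bp with summits 202 bp apart, and 1 of these was the weakest of the 16 (23.93, −log10 q-value 3.77, whereas the other 15 had the highest value of the list, 4.76).

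The strongest ECE1 peak (chr1:21212162-21212416, 160.8) lay outside the gene, 4936 bp past its 3′ end, with a TEAD core 5 bp from the summit. The closest ECE1 TSS, 9770 bp away, belongs to a retained-intron transcript, and other ECE1 TSSs also lay within 50 kb. The peak lay 133261 bp from the 5′ end of ECE1 and 78152 bp from the MANE start. The rule also assigned it to the neighbouring gene EIF4G3, and by the 5′ ends of the genes alone EIF4G3 was the nearer gene.

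ACE encodes angiotensin converting enzyme, which forms angiotensin II and degrades bradykinin (ENSG00000159640.17, plus strand, chr17:63477061-63498380). It had no peak by the rule at any of its 15 TSSs. The nearest summit was 125828 bp downstream, in a peak (chr17:63621746-63622189, 68.79) that lay 447 bp from a TSS of MAP3K3.

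The receptor genes had 0 to 2 peaks each, within the quartiles of 0 and 2 of all protein-coding genes. EDNRA, which encodes the endothelin A receptor that mediates contraction (ENSG00000151617.17, plus strand, chr4:147480917-147544954), had 1 peak (chr4:147578209-147578324, 83.82). Its summit was 33350 bp past the 3′ end of EDNRA, 97387 bp from its 5′ end, in an intron of the long non-coding gene LINC02507. It was counted because 1 of the 6 TSSs of EDNRA, that of a short transcript without a defined coding sequence, lay 46661 bp away. This was the single peak of the 16 whose nearest protein-coding TSS was not the member's, being closer to TMEM184C (39082 bp), and with long non-coding genes included the nearest TSS was that of LINC02507 at 8835 bp. An AP-1 motif lay 69 bp from its summit, near the edge of the window printed above, and no TEAD core was found within 100 bp. When each gene was given only its 5′ end as TSS, EDNRA had 0 peaks.

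EDNRB encodes the endothelin B receptor, which also clears endothelin (ENSG00000136160.17, minus strand, chr13:77895481-77975529). It had no peak by the rule. The nearest summit (chr13:78137811-78137935, 88.67) lay 162343 bp upstream, the furthest of the 3 members without a peak, and unlike those near AGT and ACE its nearest protein-coding TSS was that of EDNRB itself. AGT, ACE and EDNRB all lacked a summit within 100 kb of a TSS too, and 28.1% of protein-coding genes were without one in the gene or at that distance. Absence from the list means that no peak passed the authors' thresholds there, and with unknown depth it sets no upper limit on binding.

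AGTR1 encodes the type 1 angiotensin II receptor, which mediates most of the constrictor and profibrotic responses to the peptide (ENSG00000144891.19, plus strand, chr3:148697784-148743008). It had 2 peaks of lower IDR score, 911 and 867. The stronger (chr3:148648932-148649375, 76.23) lay 48630 bp upstream of the gene, close to the limit of the rule. Its sequence was the most A and T rich of the 16 (33.3% G and C). It held no TEAD core and neither TGACTCA nor TGAGTCA, but TGAATCA, a looser form of the AP-1 motif, lay 1 bp from its summit. The weaker (chr3:148723594-148724037, 39.08) lay in an intron, 26032 bp into the gene and 6284 bp upstream of the closest TSS. This was the other peak with the full TEAD motif, 32 bp from its summit. Another 2 TEAD cores lay at 20 and 86 bp and an AP-1 motif at 49 bp, and it was the 1 peak of the 16 with both ACATTCC and AP-1 within 100 bp. At AGTR1 the TEAD motif and the exact AP-1 motif were therefore in the peak with the lower signal value.

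**Figure D2:**
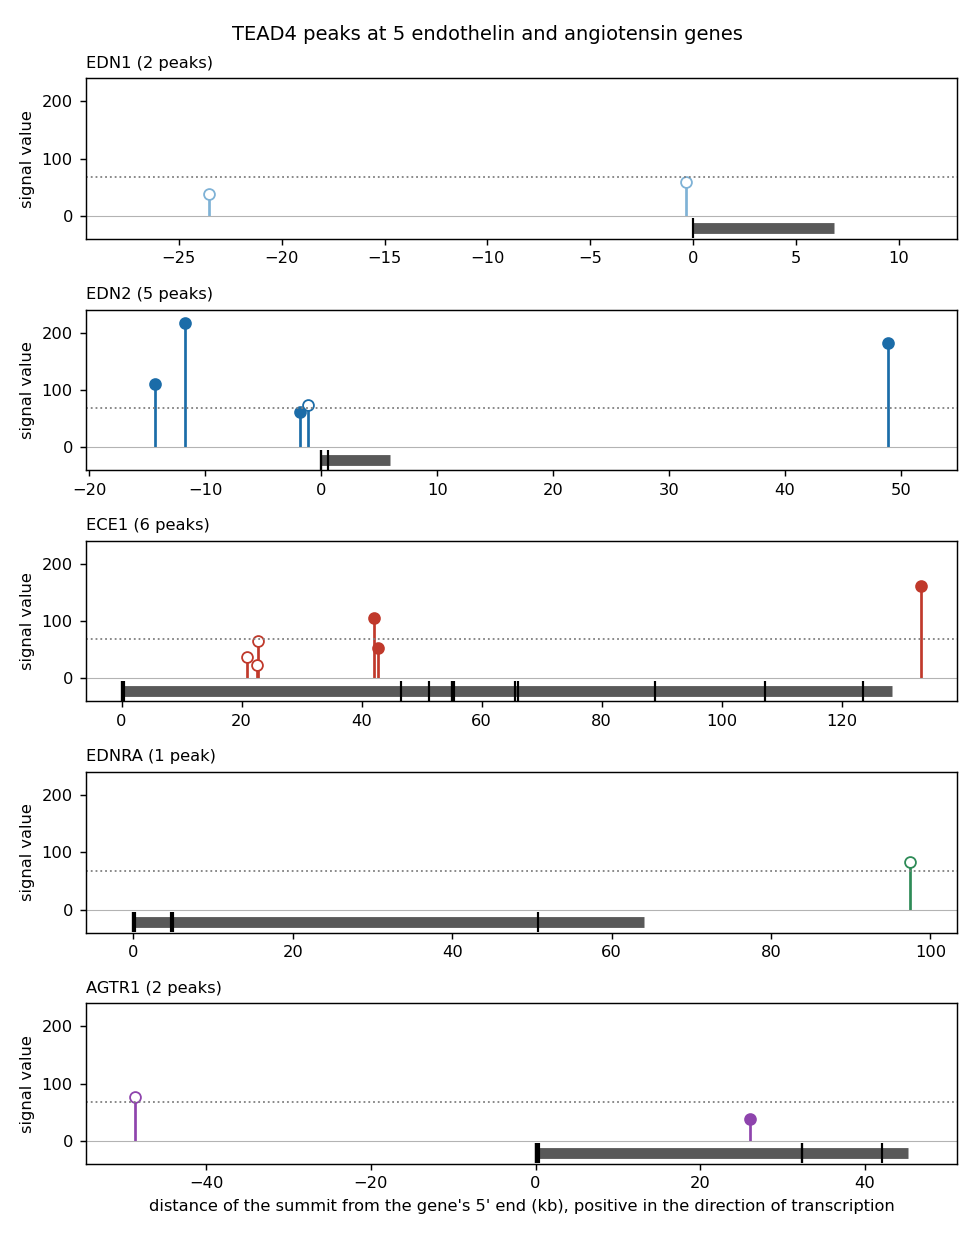
Position of each assigned summit relative to the 5′ end of its gene (horizontal axes, kb, positive in the direction of transcription) and its signal value (vertical axes) for the 5 genes with peaks. Grey bars are gene bodies, black ticks are TSSs, filled points held a TEAD core within 100 bp and open points did not, and the dotted line is the list median of 68.05. The EDN2 peaks flank the gene, 5 of the 6 ECE1 peaks lie inside it, and the EDNRA peak lies beyond the 3′ end.

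Over the 16 peaks, the shares with a TEAD or an AP-1 motif are set beside those of the list, without a test. The motifs were searched as exact letters, forward and reverse, no further than 100 bp from the summit, and every ACATTCC match is also a CATTCC match. The core CATTCC was present in 8 of 16 peaks (50%, interval 28.0 to 72.0%) and in 46.8% of all peaks. The full motif ACATTCC was present in 2 of 16 (12.5%, interval 3.5 to 36.0%) and in 23.0% of all peaks. An AP-1 motif was present in 6 of 16 (37.5%, interval 18.5 to 61.4%) and in 25.4% of all peaks. The looser form TGANTCA, with any middle base, was present in 8 of 16 (50%, interval 28.0 to 72.0%) and in 33.7% of all peaks. Each interval held the share of the list, and with 16 peaks the intervals are wide. They treat the peaks as independent, though most came from ECE1 and EDN2 and an ECE1 pair overlapped.

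Cores preceded by another base than A were found at these genes and in the list. Of the 8 peaks with a core, 2 held ACATTCC, and of the 9880 such peaks in the list 4849 did. GCATTCC was found in 4 of the 16 peaks and in 18.1% of the list, TCATTCC in 3 and in 7.29%, and CCATTCC in 2 and in 4.83%. The core of the strongest EDN2 peak and the core of the strongest ECE1 peak can be read from the sequences above, on the minus strand.

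The median signal value was 107.8 for the 8 peaks with a core (39.08 to 217.1) and 62.54 for the 8 without (23.93 to 83.82), and these ranges overlapped. In the whole list these medians were 77.71 and 61.2, so peaks with a core also had the higher median there. Width moved with signal too. The 10 peaks of 444 bp, the most common width, had signal values of 23.93 to 76.23, and the 6 narrower ones, of 116 to 299 bp, had values of 83.82 to 217.1, and in the list the medians were 51.03 for 444 bp and 131.6 for narrower peaks.

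Start sites themselves were searched for ACATTCC and the AP-1 motif in the RefSeq promoter table (GRCh38.p14, 250 bases before to 50 after the start). In it 7 of the 8 genes had entries, all but AGTR1. The core CATTCC was not counted there. Neither ACATTCC nor an AP-1 motif was present in any entry of these 7 genes, and over all 35116 promoters the shares were 3.46% and 4.95%. This says only that these letters were not in these windows.

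The limit of 50 kb left out further peaks. Between 50 and 100 kb from a TSS there were 9 more, 4 of them at EDN1 with signal values of 54.91, 65.18, 88.49 and 137.8. The one of 65.18 was nearer to a TSS of HIVEP1 than to that of EDN1. The one of 88.49, 57870 bp upstream of EDN1, held both ACATTCC and AP-1 within 100 bp, and the strongest lay 58436 bp downstream. Of the other 5, AGTR1 had 1 at 54326 bp upstream (96.14), EDNRA had 2, and EDN2 and ECE1 had 1 each, the last 4 being nearer to the TSS of another protein-coding gene. The peaks just inside the limit were those of EDNRA at 46661 bp, EDN2 at 48289 bp and AGTR1 at 48630 bp.

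The other genes of these pathways were described with a list of 32. A peak was assigned to 23 of them (71.9%), with 83 distinct peaks, a median signal value of 59.32 and a median of 1.0 peaks per 100 kb. Of all protein-coding genes 56.1% had a peak, the median signal value of the whole list was 68.05, and the median gene had 0.664 peaks per 100 kb. None of the 3 other endothelin pathway genes had a peak, namely EDN3, which encodes endothelin-3, and ECE2 and KEL, which encode further endothelin processing enzymes. Of 6 other genes of the angiotensin system 4 had 1 peak each. These were MAS1, a receptor gene, AGTRAP, whose product binds the type 1 receptor, and the protease genes CMA1 and CTSG, which shared the same peak. The AGTRAP peak (33.02, 8.22nd percentile) lay 161 bp from a TSS of another gene, C1orf167. ATP6AP2 and AGTR2 had none.

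Of 9 peptidases that cleave angiotensin or endothelin peptides 7 had a peak, and of 14 G proteins, effectors and regulators downstream of the receptors 12 did, shares of 77.8% and 85.7% beside the 56.1% of all protein-coding genes. These counts are not corrected for gene length. The highest were those of PLCB4, a phospholipase C with 22 peaks over a gene of 436769 bp, of GNAQ, the Gq alpha subunit through which these receptors signal, with 10 over 315715 bp, and of MME, which encodes neprilysin, a protease that degrades endothelin-1, with 5. PRCP, NLN, GNA11 and PLCB1 had 4 each. The strongest peaks were at MME (605.9, 99.7th percentile, 8597 bp from an MME TSS), at NLN (494.4, though nearer to the TSS of ERBIN) and at GNA12 (297.2), each above the strongest of the 8 members, 217.1 at EDN2.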

How the data were processed

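TEAD4 ChIP-seq was performed by the authors on LX-2 cells, with 3 ChIP and 2 input samples. Reads were aligned by them to hg38 (Chromap), and the IDR pipeline of ENCODE was run on the replicates. By their account only replicates 1 and 3 were concordant enough, so these were kept and 2 was left out. The peak caller for TEAD4 is not given in the sources used here. One deposited list of 21113 peaks in 10 columns was used. The score deposited for each peak is its scaled IDR. Signal and −log10 q-value were written by the authors' peak caller, and the deposited summit offset counts bases from the peak's start. The layout and values of the list gave these meanings, which no source used here spells out. The list holds no counts, so the depth per sample is unknown.

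Genes and TSSs came from GENCODE release 44. Counts per gene, distances, motif matches and Wilson 95% intervals were computed with Python 3.11.15, numpy 2.4.6, pandas 2.3.3, scipy 1.17.1, pysam 0.24.0 and matplotlib 3.10.9, in code tested on simulated data. The 8 members, the 32 other pathway genes and the motifs were chosen with earlier results of these data known. Named were all members with up to 5 peaks each (beyond 5, the peak nearest to a TSS, the strongest and those with ACATTCC; other peaks were then named for their position after their values were seen), the genes nearest to peaks, and of the 32 genes the 5 with the most peaks, of which the last place was tied, and the 3 with the strongest peak. Genes named for other reasons, such as neighbours and genes with 0 or 1 peak, and the comparison of signal values with and without a core were chosen after values were seen. Alternatives changed the distance, the TSSs, the set of peaks, the motif and its window. Some pathway genes are not reported here. No test was made.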

Additional observations from a re-analysis of the deposited data

How the results depend on the processing

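Of 54 alternatives for 8 summary values, 47 stayed within the tolerance used (1.5 times for a count, and the 95% interval of the value itself for the shares and the median), and of 64 for the count of single genes 52 did. The exceptions among the summary values were the number of assigned peaks, 16 by the rule, which was 10 with a distance of 10 kb, 25 with 100 kb and 8 with peaks above the median signal value only; the number of genes with a promoter peak, 2 by the rule, which was 1 with 1 kb and 1 with peaks above the median signal value only; the number of other pathway genes with a peak, 23 by the rule, which was 15 with peaks above the median signal value only; and the share of peaks with a TEAD motif, 12.5% with ACATTCC, which was 50% with the core CATTCC. Within the wide intervals, the AP-1 share was 18.8% instead of 37.5% with a window of 50 bp. Over all peaks it was 17.2% with that window instead of 25.4%. The ACATTCC share was 20% with 10 or 100 kb. The median signal value was 107.8 with peaks above the list median only, a filter that could not lower it. Intervals this wide let large changes pass, so for the shares and the median the 47 are a weak check. The number of members with a peak was 5 with 100 kb and 4 with 10 kb. Of the single genes, EDN2 had 2 peaks with 10 kb and ECE1 had 2 above the median signal value. EDN1 had 6 peaks with 100 kb, 1 with 10 kb or with the highest IDR score only, and 0 above the median signal value. AGTR1 had 0 with the highest IDR score only and 1 with 10 kb or above the median signal value, and EDNRA had 3 with 100 kb and 0 with 10 kb or with 1 TSS per gene. AGT, ACE and EDNRB had 0 peaks under every alternative run. Only the distance of 100 kb and the use of any base of a peak could have added a peak there. Under the other alternatives their 0 could not change, yet these are counted among the 52.

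No paired analysis was possible because single replicates have no values in the combined list, and for the same reason none was left out in turn. Assignment by distance does not show which gene a peak acts on. The list gives binding in DMSO-treated cells of 1 line, with unknown depth, and a site missing from it is not shown to be unbound.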
